A study of Homo sapiens with 21 samples.

Results

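AU565 is a human breast cancer cell line of luminal type in which the ERBB2 gene is amplified. The comparison here is between AU565 monolayers exposed acutely to trastuzumab (20 µg/ml for 24 h) and untreated AU565 monolayers, with 3 libraries in each group, which are 6 of the 21 libraries of the series. Both groups are labelled wild type and epithelial, no vehicle or isotype antibody is named for the untreated cells, and both come from 1 line. The remaining 15 libraries are primed monolayers and 4 kinds of 3D aggregates. All of them shared 1 fit for the spread between replicates, and the treated and untreated aggregates enter one comparison at the end. Members were the 6 columns whose titles name these groups, and all 16553 genes of the deposited table were taken, of which 15969 were tested. Nothing in the labels ties a replicate to its own culture, so each p-value measures the spread between these libraries, which may be technical.

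Trastuzumab is an antibody against the extracellular part of HER2, the receptor tyrosine kinase that ERBB2 encodes. HER2 binds no ligand of its own and signals with its partners EGFR and HER3 through the RAS-ERK and PI3K-AKT pathways. ERK activity induces its own inhibitors, among them the Sprouty and DUSP proteins, while AKT keeps FOXO transcription factors out of the nucleus and so holds down their targets, which include INSR and ERBB3. The antibody's Fc part can also engage immune cells, which the monolayers did not contain by label.

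Levels below are counts scaled to library size (CPM), changes are log2 fold changes of exposed over untreated monolayers, and a gene was called, or rose or fell, with a Benjamini-Hochberg adjusted p under 0.05 in edgeR. Total counts were 18013925, 21051905 and 24185757 in exposed libraries 1 to 3 and 17207688, 24722679 and 21092580 in untreated libraries 1 to 3. The 14 luminal epithelial markers checked were all above 1 CPM in both groups, and their summed level was 19517 to 20459 CPM in exposed and 15805 to 17167 CPM in untreated monolayers. ERBB2 made up a large part of this sum, with means of 9937 CPM in exposed and 7732 CPM in untreated monolayers. Of the 14 markers 6 were called higher and 1 lower, with changes from −1.03 to 0.89. The leucocyte genes PTPRC, CD3E, CD4, CD8A and MS4A1 are not rows of the table used. The cardiac myosin MYH7 was at 0.110, 23.8 and 30.3 CPM in exposed libraries 1, 2 and 3, against 85.5, 87.4 and 0.0924 CPM in untreated libraries 1, 2 and 3. Summed striated muscle markers (13 of 16 in the table) ranged over 98.9 to 194 CPM in exposed and 131 to 331 CPM in untreated monolayers, and fibroblast markers (11 of 13) over 31.2 to 42.5 CPM in exposed and 30.4 to 57.8 CPM in untreated monolayers. With MYH7 presence (at least 5 CPM) as a term in the fit, 3196 of the 3222 called genes were still called. Presence held in as many exposed as untreated libraries, so this term could move the changes only little. It also takes no account of the differing MYH7 levels. Where a called gene lost its call and its change shrank by more than 1.5 times in the pair of libraries low in MYH7, exposed 1 and untreated 3, that change is given beside it. Mitochondrial rRNA took 0.903 to 0.951% of counts in exposed and 0.925 to 1.14% in untreated libraries, the higher share standing in the untreated libraries with MYH7.

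Many genes differed after 24 h of trastuzumab, most of them by little. In edgeR 1799 of 15969 tested genes were called higher (11.3%) and 1423 lower (8.91%), together 3222 or 20.2%, and 5067 genes had an unadjusted p under 0.05. The median change of the called genes was 0.36 for those higher and −0.31 for those lower, beside −0.02 over all tested genes. A change of at least 1.5-fold was seen in 431 of the higher and 208 of the lower genes, and one of at least 2-fold in 133 of the higher and 79 of the lower. Summed over all genes called higher, expression came to 217204 CPM in exposed and 171812 CPM in untreated monolayers. The genes called lower summed to 95502 CPM in exposed and 114489 CPM in untreated monolayers.

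A call was more frequent at high levels: of the 9337 tested genes averaging at least 10 CPM, 16.2% were called higher and 12.5% lower, the closer background for counts over lists of well expressed genes. Counts over the lists below are to be read beside these shares and those of all tested genes. Of the genes called higher 97.3% were protein coding, as were 96.1% of those called lower, beside 87.3% of all tested genes. Median GC content of the 300-base promoter windows in RefSeq was 68.0% for genes called higher (1391 with a window), 63.7% for genes called lower (1166) and 64.7% for all tested genes (12190). Chromosome 19 had 13.9% of its 1032 tested genes called higher and 2.33% called lower, and chromosome 4, in contrast, 8.36% and 14.9% of 538. On chromosome 20, 18.2% of 450 genes were called higher. The part of base composition in the calls was not tested.

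**Figure D1:**
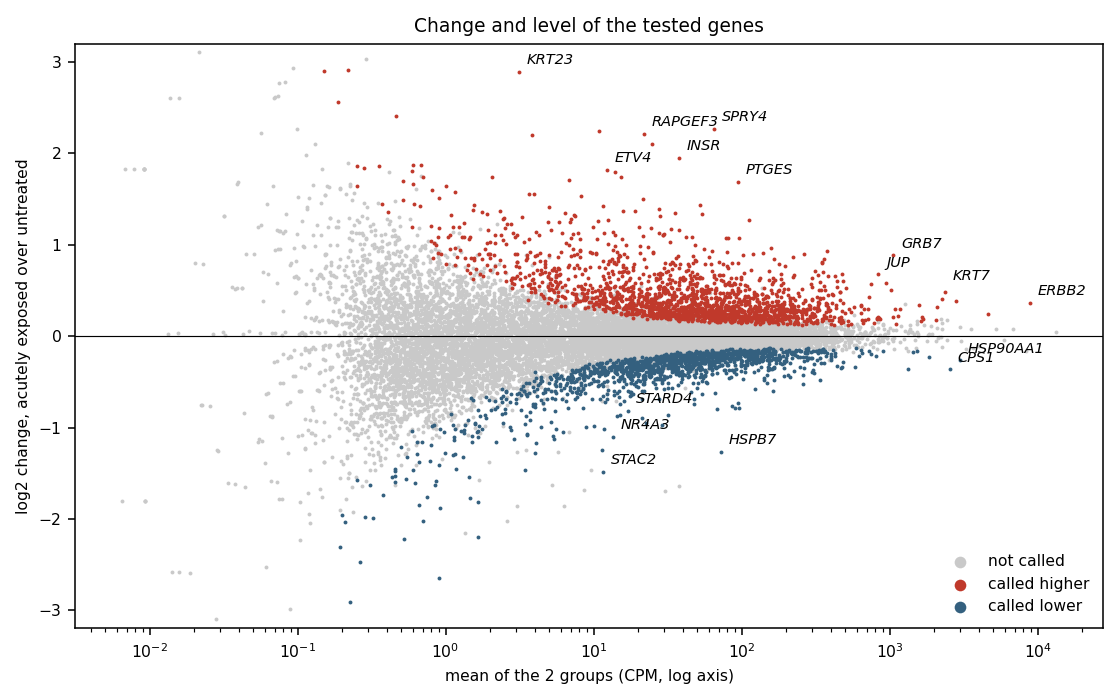
Each point is 1 tested gene, with the mean of the 2 groups' CPM on a log axis and the log2 change of acutely exposed over untreated monolayers on the vertical axis; 17 genes lie outside the axis limits of 3.2 in either direction. Changes of at least 2-fold were called in 133 genes higher and 79 lower, and among abundant genes GRB7, JUP, KRT7 and ERBB2 stand above the rest.

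Among genes of at least 5 CPM in 1 group and no overlap between groups, the largest rises included a keratin, a feedback inhibitor and signalling receptors. KRT23, a type I keratin, was at 5.05, 5.54 and 5.92 CPM in exposed, against 0.730, 0.780 and 0.693 CPM in untreated monolayers (log2 2.90, SE 0.22, adjusted p = 3.88e-12). SPRY4, which restrains signalling from receptor tyrosine kinases to ERK, was at 105, 108 and 112 CPM in exposed, against 21.8, 22.9 and 22.6 CPM in untreated monolayers (log2 2.27, SE 0.067, adjusted p = 2.08e-23). INSR, the insulin receptor (chromosome 19, 7112265 to 7294414 on GRCh38.p14), was at 60.2, 60.6 and 60.1 CPM in exposed, against 13.6, 16.1 and 16.8 CPM in untreated monolayers (log2 1.95, SE 0.082, adjusted p = 7.05e-19). In each of these genes the lowest exposed library stood several times above the highest untreated one, and the spread within a group was small beside the gap. ADORA1, the adenosine A1 receptor, was at 16.5, 19.9 and 17.9 CPM in exposed, against 3.15, 3.98 and 4.21 CPM in untreated monolayers (log2 2.24, SE 0.21, adjusted p = 3.4e-07). RAPGEF3, a Rap exchange factor switched on by cAMP, was at 35.9, 34.4 and 38.01 CPM in exposed, against 7.02, 7.21 and 9.01 CPM in untreated monolayers (log2 2.22, SE 0.095, adjusted p = 1.16e-18), and PTGES, the prostaglandin E synthase, at 140.2, 143 and 147 CPM in exposed, against 42.2, 48.3 and 42.9 CPM in untreated monolayers (log2 1.69, SE 0.074, adjusted p = 8.39e-17). Again no library of one group came near the other, though lack of overlap was a condition of the choice.

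Further genes among the 12 largest rises follow. The metallothionein MT2A was at 38.5, 36.01 and 45.99 CPM in exposed, against 8.99, 10.6 and 8.23 CPM in untreated monolayers (log2 2.11), and the PEA3 factor ETV4 at 20.4, 17.9 and 19.2 CPM in exposed, against 5.39, 5.97 and 4.76 CPM in untreated monolayers (log2 1.82). DEPP1, a FOXO-induced regulator of autophagy, was at 6.76, 6.54 and 5.55 CPM in exposed, against 1.46, 1.13 and 1.53 CPM in untreated monolayers (log2 2.20), and the adhesion receptor ADGRF1 at 9.78, 11.99 and 9.79 CPM in exposed, against 3.201, 2.85 and 3.61 CPM in untreated monolayers (log2 1.71). All 4 were called, with no overlap between groups, as their choice required. LRRC26, a potassium channel subunit, was at 12.5, 23.4 and 34.2 CPM in exposed, against 9.15, 6.71 and 5.69 CPM in untreated monolayers (log2 1.75, adjusted p = 0.00867), and MMP24OS, an antisense gene whose reads cannot be told apart from those of its overlapping partner without strand, at 10.2, 22.5 and 31.96 CPM in exposed, against 7.69, 5.46 and 6.01 CPM in untreated monolayers (log2 1.80, adjusted p = 0.0147). These 2 rises rested on exposed libraries 2 and 3. Without exposed library 3 their changes were 1.35 and 1.38, and MMP24OS had 1.69 without untreated library 2, none of them called. In the libraries low in MYH7, LRRC26 had 1.13 and MMP24OS 0.76, also not called.

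Among genes of at least 5 CPM in 1 group the largest falls were smaller than the largest rises. STAC2, a regulator of voltage-gated calcium channels, was at 6.43, 5.88 and 5.96 CPM in exposed, against 16.3, 16.1 and 18.6 CPM in untreated monolayers (log2 −1.49, SE 0.15, adjusted p = 2.74e-09). HSPB7, a small heat shock protein of heart and skeletal muscle, fell to 44.4, 42.8 and 41.5 CPM in exposed, against 101, 99.7 and 108 CPM in untreated monolayers (log2 −1.26, SE 0.065, adjusted p = 1.67e-16). Its level was alike in untreated libraries with and without MYH7. NR4A3, an orphan nuclear receptor induced early by many stimuli, was at 9.23, 8.24 and 8.43 CPM in exposed, against 20.3, 17.7 and 17.5 CPM in untreated monolayers (log2 −1.10, SE 0.13, adjusted p = 2.93e-08), and P2RX4, an ATP-gated cation channel, at 7.09, 8.34 and 7.90 CPM in exposed, against 15.6, 16.8 and 14.7 CPM in untreated monolayers (log2 −1.01, SE 0.10, adjusted p = 1.66e-09). The potassium channel KCNK3 (log2 −1.47), the lipogenic regulator THRSP (−1.17), the endocytic adaptor STON2 (−1.13), the neuropeptide receptor NPY4R (−1.09), OTOR (−1.05), KLHDC7A (−1.02) and GASK1B (−0.996) fell as well. PRUNE2 was at 3.02, 2.13 and 1.85 CPM in exposed, against 7.75, 4.33 and 4.99 CPM in untreated monolayers (log2 −1.28); within the libraries low in MYH7, exposed 1 and untreated 3, its change was −0.72.

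**Figure D2:**
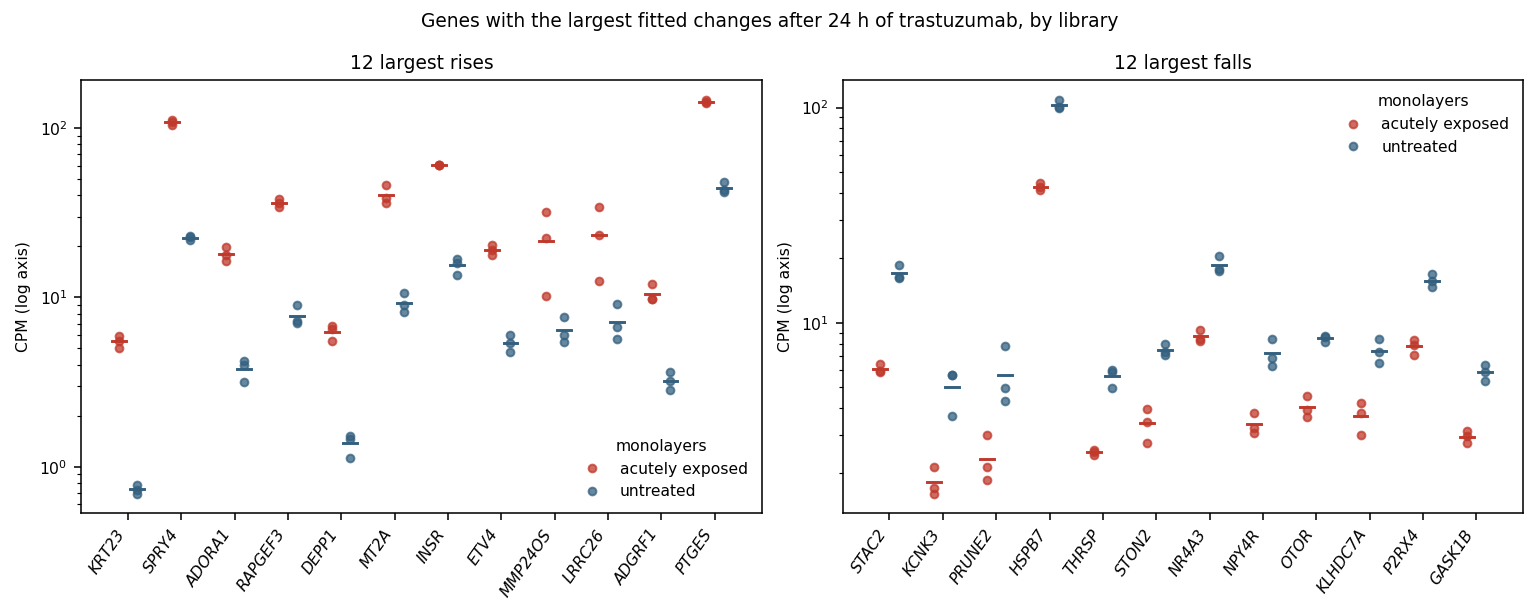
Levels of the 12 genes with the largest fitted rises (left) and the 12 with the largest falls (right), in CPM on a log axis, with 1 point per library and a bar at the group mean; acutely exposed libraries stand left of untreated ones. Points of the 2 groups do not overlap for any of the 24 genes, a condition of their choice, and MMP24OS and LRRC26 have the widest spread among exposed libraries.

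Ranked by the difference in CPM, which also grows with transcript length, the rises were led by epithelial and HER2 genes. ERBB2 (chromosome 17, 39688094 to 39728658 on GRCh38.p14) was at 9807, 9972 and 10033 CPM in exposed, against 7571, 7435 and 8189 CPM in untreated monolayers (log2 0.36, SE 0.053, adjusted p = 2.98e-06). The keratin KRT7 was at 2459.5, 2761 and 3012 CPM in exposed, against 1856, 1935 and 2084 CPM in untreated monolayers (log2 0.49, SE 0.080, adjusted p = 8.23e-05); in the libraries low in MYH7 its change was 0.24, and it was not called there. GRB7, an SH2 adaptor of HER2, was at 1375, 1368 and 1367 CPM in exposed, against 719, 721 and 784 CPM in untreated monolayers (log2 0.89, SE 0.054, adjusted p = 1.17e-14), and JUP, the junction protein plakoglobin, at 1048, 1022 and 1024 CPM in exposed, against 619, 592 and 724 CPM in untreated monolayers (log2 0.68, SE 0.069, adjusted p = 1.44e-08). The lysosomal protease CTSD (log2 0.24, and 0.11 in the libraries low in MYH7), SUSD2 (0.41) and the scaffold AHNAK (0.32) were also among them.

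The falls of largest CPM difference held mitochondrial and chaperone genes. CPS1, the mitochondrial carbamoyl phosphate synthase, was at 2240.2, 2287 and 2186 CPM in exposed, against 2968, 2809 and 2862 CPM in untreated monolayers (log2 −0.36, adjusted p = 0.0346), and its call was lost when any 1 of the 6 libraries was left out (log2 −0.38 to −0.34). The cytosolic chaperone HSP90AA1 was at 2720.3, 2758 and 2689 CPM in exposed, against 3376, 3201 and 3241 CPM in untreated monolayers (log2 −0.27, SE 0.061, adjusted p = 0.00149). The mitochondrial chaperone HSPA9 (log2 −0.22), the ATP synthase subunit ATP5F1B (−0.17) and the chromatin factor ATAD2 (−0.33) fell too. SCD, the stearoyl-CoA desaturase (−0.16), and the reductase DHRS2 (−0.23) were called, but SCD was not when exposed library 1 (−0.16) or 3 (−0.15) or untreated library 2 (−0.16) or 3 (−0.14) was left out. DHRS2 lost its call without exposed library 1 (−0.17) or untreated library 2 (−0.22) or 3 (−0.15), and had −0.09 within the libraries with MYH7, not called, and −0.51 within those low in it. COX3, encoded by the mitochondrial genome, was called lower at 1242, 1106 and 1169.8 CPM in exposed, against 1652, 1686 and 1177 CPM in untreated monolayers, but the groups overlapped: the untreated libraries with MYH7 were the high ones. Its change was 0.08 in the libraries low in MYH7.

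Of 17 tested genes around ERBB2 on chromosome 17, 5 rose and 0 fell (29.4%, beside 11.3% of all tested genes called higher). ERBB2 and GRB7 rose most, and the genes between and beside them are usually amplified with them. MIEN1, which lies between ERBB2 and GRB7, was at 331, 317 and 336 CPM in exposed, against 315, 321 and 341 CPM in untreated monolayers (log2 0.01, SE 0.050), and PGAP3 and STARD3 on the other side of ERBB2 had changes of 0.09 and 0.13, none of them called in edgeR. STARD3 was called higher in DESeq2, in a fit of only the groups compared and without untreated library 3 (0.17). Further out, ORMDL3 (0.19), FBXL20 (0.16) and PSMD3 (0.14) were called higher by little. Each lost its call when 1 library was left out: ORMDL3 without exposed 1 (0.16) or untreated 1 (0.16), FBXL20 without exposed 2 (0.15) or 3 (0.15), and PSMD3 without any 1 of 5 libraries, all but untreated 3 (0.12 to 0.18 over the 6 fits, and 0.09 in the libraries low in MYH7). Levels of MED1, CDK12 and MED24 differed by −0.14, 0.02 and −0.04, and the mediator subunit MED1 was called lower in DESeq2 and limma voom.

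**Figure D3:**
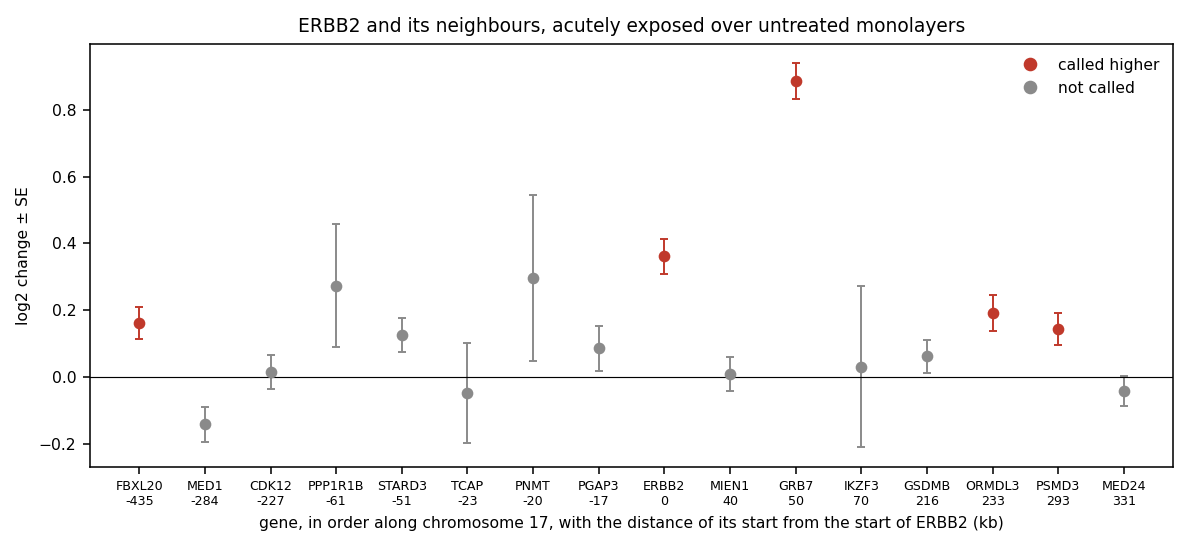
Log2 change of acutely exposed over untreated monolayers with its standard error for ERBB2 and 15 neighbours in their order along chromosome 17; the number under each gene is the distance of its start from that of ERBB2 in kb. GRB7 at 0.89 and ERBB2 at 0.36 stand above MIEN1 at 0.01, which lies between them; the weakly expressed GSDMA (1.89, SE 0.71, not called) is left out.

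Among the receptor partners of HER2, ERBB3 and EGFR rose and ERBB4 fell. ERBB3, the kinase-impaired partner that recruits PI3K, was at 400.0, 415 and 398 CPM in exposed, against 274, 276 and 302 CPM in untreated monolayers (log2 0.51, SE 0.051, adjusted p = 1.54e-09). EGFR was at 97.5, 104 and 101 CPM in exposed, against 83.96, 86.4 and 88.7 CPM in untreated monolayers (log2 0.23, SE 0.064, adjusted p = 0.00952), and was not called without exposed library 2 (log2 0.20). ERBB4 was at 0.879, 1.09 and 0.617 CPM in exposed, against 1.52, 1.75 and 2.08 CPM in untreated monolayers (log2 −1.06, SE 0.33, adjusted p = 0.0185), and was not called without exposed library 3 (−0.86) or untreated library 3 (−0.94). None of the 10 tested ligands was called in edgeR. NRG4 came nearest with −0.91 (adjusted p = 0.0545), and was called lower in limma voom and without exposed library 3 (−1.20). TGFA was at 0.220, 0.142 and 0.206 CPM in exposed, against 0.393, 0.273 and 0 CPM in untreated monolayers (log2 −0.19). Of 23 adaptors and brakes of the HER receptors 6 rose and 2 fell (26.1% and 8.70%, beside 11.3% and 8.91% of all tested genes). ERRFI1, which binds and inhibits the EGFR and HER2 kinases, was at 60.3, 65.5 and 67.9 CPM in exposed, against 36.1, 32.1 and 29.3 CPM in untreated monolayers (log2 0.996, SE 0.073, adjusted p = 1.68e-12). LRIG1, a negative regulator of HER receptors (log2 0.56), the ubiquitin ligase CBLB (0.60) and CD44 (0.33) rose, and the RAS exchange factor SOS1 fell (−0.29). In the libraries low in MYH7, EGFR had 0.14 and SOS1 −0.17.

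Several other receptor kinases were called beside INSR. Of 26 tested, 10 rose and 3 fell (median 0.18, beside −0.02 over all tested genes). EPHA2, an ephrin receptor, was at 55.4, 53.5 and 55.9 CPM in exposed, against 32.9, 29.6 and 33.1 CPM in untreated monolayers (log2 0.79, SE 0.066, adjusted p = 3.02e-11). IGF1R, close kin of INSR, was at 34.5, 35.5 and 34.8 CPM in exposed, against 24.04, 22.7 and 25.9 CPM in untreated monolayers (log2 0.53, SE 0.061, adjusted p = 3.67e-08), and PTK7 also rose (0.55). FGFR4 was one of those that fell, at 27.7, 27.7 and 26.98 CPM in exposed, against 39.4, 41.4 and 41.1 CPM in untreated monolayers (log2 −0.57, SE 0.094, adjusted p = 2.35e-05). Downstream of the insulin and IGF receptors, the docking protein IRS1 was at 14.01, 13.7 and 14.9 CPM in exposed, against 9.04, 9.48 and 9.11 CPM in untreated monolayers (log2 0.63), while the IGF-binding protein IGFBP5 (−0.74) and the adaptor GRB14, which inhibits the insulin receptor, fell (−0.72; without exposed library 1 it had −0.57 and was not called). In that list of 12 tested genes 2 rose and 3 fell.

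Of 25 FOXO factors and targets 12 rose and 0 fell (median 0.20); the targets are known to be held down while AKT is active. FOXO3 itself was at 44.1, 49.2 and 50.8 CPM in exposed, against 24.7, 26.9 and 26.8 CPM in untreated monolayers (log2 0.88, SE 0.065, adjusted p = 2.05e-12). TRIB1, a pseudokinase adaptor, was at 173, 182 and 188 CPM in exposed, against 98.5, 93.3 and 96.9 CPM in untreated monolayers (log2 0.91, SE 0.058, adjusted p = 3.82e-14), the ubiquitin ligase gene FBXO32 at 405, 447 and 457 CPM in exposed, against 279, 261 and 264 CPM in untreated monolayers (log2 0.70, SE 0.053, adjusted p = 2.37e-12), and the repressor BCL6 at 53.2, 60.1 and 56.8 CPM in exposed, against 39.4, 37.9 and 36.9 CPM in untreated monolayers (log2 0.58). TNFSF10, the death ligand TRAIL, was at 31.1, 32.4 and 32.3 CPM in exposed, against 12.97, 9.95 and 11.2 CPM in untreated monolayers (log2 1.501). In all 5 the groups did not overlap, which their choice as the called members of the list with the smallest p favours. The CDK inhibitor CDKN1B, a target of FOXO factors, was at 86.02, 95.7 and 93.2 CPM in exposed, against 74.6, 83.03 and 80.1 CPM in untreated monolayers (log2 0.21, SE 0.059, adjusted p = 0.00932); it had 0.10 in the libraries low in MYH7 and was not called without exposed library 2 (0.18) or 3 (0.19) or untreated library 1 (0.17).

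Components of the PI3K pathway rose in 9 of 28 cases and fell in 1 (32.1% and 3.57%, beside 11.3% and 8.91% of all tested genes). The lipid phosphatase INPP4B was at 29.9, 29.7 and 28.1 CPM in exposed, against 13.6, 13.3 and 14.1 CPM in untreated monolayers (log2 1.09, SE 0.083, adjusted p = 3.02e-12), and PIK3IP1, an inhibitor of PI3K, was at 8.95, 13.6 and 10.9 CPM in exposed, against 6.01, 7.49 and 7.996 CPM in untreated monolayers (log2 0.63, and 0.16 in the libraries low in MYH7). DEPTOR, which inhibits mTOR, also rose (0.36). In the BCL2 family 5 of 14 tested genes rose (35.7%) and 0 fell, on both sides of the balance. The pro-apoptotic BMF was at 34.1, 33.6 and 33.5 CPM in exposed, against 18.4, 21.2 and 23.2 CPM in untreated monolayers (log2 0.68, SE 0.085, adjusted p = 1.73e-07), and BCL2L11, which encodes BIM, was at 61.5, 59.9 and 63.7 CPM in exposed, against 49.1, 52.1 and 49.5 CPM in untreated monolayers (log2 0.30, SE 0.063, adjusted p = 0.000677). MCL1 (log2 0.34) and BCL2L1 (0.43; 0.28 in the libraries low in MYH7), which protect from apoptosis, rose as well, and so did the pro-apoptotic BBC3 (0.55; 0.32 in the libraries low in MYH7).

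The forkhead motif GTAAACA, searched on both strands of the promoter windows (250 bases before to 50 after each start, RefSeq, GRCh38.p14), was found in 3 of 22 FOXO list promoters. It was in 3.16% of promoters of genes called higher, 1.72% of those of genes called lower and 2.37% of all. BCL2L11 is shown as a called list member that holds it, with the motif in capitals, its first base at position −223 from the start, inside an upstream stretch that ends before the start site (chr2:111120664-111120737, plus strand).
BCL2L11: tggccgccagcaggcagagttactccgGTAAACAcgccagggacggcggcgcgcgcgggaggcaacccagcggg

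Feedback genes of the ERK pathway included SPRY4 and ETV4, which are among the 12 largest rises. Of 26 tested, 10 rose and 0 fell (median 0.24). Beside SPRY4 and ETV4, the phosphatase gene DUSP4 was at 207, 215 and 220.4 CPM in exposed, against 118, 119 and 121 CPM in untreated monolayers (log2 0.84, SE 0.056, adjusted p = 1.06e-13), and DUSP5 at 21.8, 19.6 and 21.5 CPM in exposed, against 13.8, 10.8 and 9.34 CPM in untreated monolayers (log2 0.90). SPRED1 and SPRED2, which block RAS activation, were at 22.96, 30.7 and 30.03 CPM in exposed, against 17.3, 15.4 and 14.2 CPM in untreated monolayers (log2 0.85) and 65.5, 59.6 and 61.7 CPM in exposed, against 35.5, 35.2 and 34.3 CPM in untreated monolayers (log2 0.83). PHLDA1 (0.88), SPRY1 (0.43), IER3 (0.43) and the scaffold KSR1 (0.63) rose too. Close kin of the risen genes did not all pass. SPRY2 was at 2.20, 1.99 and 1.81 CPM in exposed, against 2.58, 3.31 and 1.16 CPM in untreated monolayers (log2 −0.25, adjusted p = 0.603) and DUSP6, the ERK phosphatase, at 8.40, 7.82 and 7.90 CPM in exposed, against 5.84, 8.27 and 4.16 CPM in untreated monolayers (log2 0.38, adjusted p = 0.247). DUSP6 was low in untreated libraries 1 and 3 and high in untreated 2, and without that library its change was 0.70 and was called. SPRED3, the lowest of the list, was at 1.04, 0.948 and 0.658 CPM in exposed, against 2.41, 1.44 and 0.647 CPM in untreated monolayers (log2 −0.75, adjusted p = 0.15). It was called lower without untreated library 3 (−1.11) and within the libraries with MYH7 (−1.24), and had 0.68 in the libraries low in MYH7. ETV5 (0.31) and ETV1 (−0.12), relatives of ETV4, did not pass.

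Of 26 AP-1 and immediate early genes 14 rose and 2 fell, with a median of 0.42. The small MAF factor MAFF was at 67.01, 79.1 and 85.3 CPM in exposed, against 27.6, 30.6 and 33.5 CPM in untreated monolayers (log2 1.34, SE 0.096, adjusted p = 1.78e-10). IER5 was at 53.2, 53.1 and 60.1 CPM in exposed, against 38.9, 34.6 and 33.7 CPM in untreated monolayers (log2 0.64, SE 0.087, adjusted p = 2.68e-06), KLF4, a zinc finger factor of epithelia, at 69.3, 82.5 and 83.3 CPM in exposed, against 54.8, 56.1 and 55.3 CPM in untreated monolayers (log2 0.50), and FOSL2, a FOS family subunit, at 114, 130.3 and 120.1 CPM in exposed, against 91.4, 85.8 and 93.8 CPM in untreated monolayers (log2 0.43). In the libraries low in MYH7, KLF4 had 0.33 and FOSL2 0.28. NR4A3 went the other way, as given above. The AP-1 motif TGANTCA stood in 6.47% of promoters of genes called higher, 4.89% of those called lower and 5.01% of all, and in 1 of 20 promoters of the list.

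Many cell cycle genes fell, in the largest share those of mitosis. Of 37 mitotic genes 0 rose and 26 fell (70.3%, beside 8.91% of all tested genes called lower; median −0.26), and of 39 replication genes 0 rose and 13 fell (median −0.19). The cyclin CCNB2 was at 23.8, 22.9 and 25.9 CPM in exposed, against 31.7, 34.7 and 35.9 CPM in untreated monolayers (log2 −0.49, SE 0.092, adjusted p = 0.000119). The kinase AURKA was at 100.4, 109 and 105 CPM in exposed, against 133, 134 and 146 CPM in untreated monolayers (log2 −0.39, SE 0.063, adjusted p = 1.43e-05), the cytokinesis protein ANLN at 172, 185 and 174 CPM in exposed, against 239.6, 231 and 241 CPM in untreated monolayers (log2 −0.42, SE 0.062, adjusted p = 3.1e-06), and the kinetochore protein NUF2 at 14.6, 16.9 and 16.1 CPM in exposed, against 21.8, 22.6 and 23.2 CPM in untreated monolayers (log2 −0.50). In each of these 4 genes the highest exposed library was below the lowest untreated one. They were taken from the called members with the smallest p, a choice that favours this. Replication genes fell by similar steps, with the clamp loader subunits RFC3 (−0.44) and RFC4 (−0.29), the origin proteins ORC6 (−0.47) and CDC6 (−0.30) and the GINS subunit GINS4 (−0.51). Among 29 cyclins and CDK inhibitors 4 rose and 9 fell. CCND1, the cyclin of early G1, was at 359.6, 369 and 377 CPM in exposed, against 269, 272 and 278 CPM in untreated monolayers (log2 0.43, SE 0.046, adjusted p = 4.84e-09), the opposite of CDK1 at 41.2, 50.6 and 52.3 CPM in exposed, against 63.1, 67.9 and 64.8 CPM in untreated monolayers (log2 −0.44, SE 0.100, adjusted p = 0.0023) and CCNA2 (−0.36). RBL2, a pocket protein of resting cells, rose (0.25; 0.13 in the libraries low in MYH7). MKI67 was at 160.2, 167 and 167 CPM in exposed, against 194, 187 and 197 CPM in untreated monolayers (log2 −0.23, edgeR adjusted p = 0.086), lower in all exposed libraries but not called, although DESeq2 and limma voom called it. Fewer cycling cells and less RNA per cycling cell cannot be told apart in bulk RNA.

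Many mitotic promoters hold the cell cycle homology region (CHR), TTTGAA, at which the DREAM complex represses them in resting cells. The 6 letters, on either strand of the 300-base window, were in 21 of 31 mitotic promoters with a RefSeq window (67.7%), beside 16.3% of promoters of genes called lower, 7.62% of those called higher and 10.2% of all 12190 promoters. The 6 called genes below show where it lies relative to the start; the letters are given in capitals in the upstream stretch, which runs 5′ to 3′ on the gene's strand and ends at the start site or before it. The stretches are chr7:36389802-36389861, plus strand for ANLN, chr15:90994536-90994595, minus strand for PRC1, chr15:59105077-59105145, plus strand for CCNB2, chr10:92593062-92593129, plus strand for KIF11, chr15:69414254-69414339, plus strand for KIF23 and chr10:60778130-60778215, plus strand for CDK1. In KIF11 the motif is on the other strand and reads TTCAAA here. ANLN also holds it on the other strand, just before the copy in capitals.
ANLN: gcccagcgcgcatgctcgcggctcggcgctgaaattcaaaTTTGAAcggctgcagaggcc
PRC1: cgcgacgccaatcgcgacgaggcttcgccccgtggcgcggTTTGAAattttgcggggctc
CCNB2: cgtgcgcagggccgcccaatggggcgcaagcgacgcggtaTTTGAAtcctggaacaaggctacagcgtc
KIF11: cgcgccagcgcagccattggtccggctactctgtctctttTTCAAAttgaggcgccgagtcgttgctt
KIF23: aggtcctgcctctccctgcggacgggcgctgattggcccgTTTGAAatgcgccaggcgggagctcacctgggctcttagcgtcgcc
CDK1: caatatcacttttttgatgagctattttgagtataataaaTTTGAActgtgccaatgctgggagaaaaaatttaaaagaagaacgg

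In ANLN and PRC1 the first base of the motif lay at position −20 from the start, in KIF11 at −28 and in CCNB2 at −29, in KIF23 at −55 and in CDK1 at −161. The changes of these genes were −0.42, −0.33, −0.40, −0.49, −0.35 and −0.44 in that order. A match in these windows is a match of letters only.

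Many genes of sterol synthesis fell. Of 28 genes of sterol synthesis and uptake 15 fell and 1 rose (median −0.20). FDPS, farnesyl diphosphate synthase, was at 217, 213 and 214 CPM in exposed, against 316, 291 and 316 CPM in untreated monolayers (log2 −0.52, SE 0.047, adjusted p = 1.74e-10), and the sterol carrier STARD4 at 13.1, 12.1 and 12.01 CPM in exposed, against 22.9, 22.2 and 20.6 CPM in untreated monolayers (log2 −0.82, SE 0.092, adjusted p = 2.11e-08). The demethylation enzyme MSMO1 (−0.49) and squalene epoxidase SQLE (−0.34) fell too. The sterol element TCACNCCAC was in 1 of 21 promoters of this list and in 1.04% of all. In sterol export, ABCG1 was at 19.9, 18.1 and 17.8 CPM in exposed, against 7.36, 9.71 and 7.86 CPM in untreated monolayers (log2 1.14, SE 0.095, adjusted p = 2.33e-11), whereas ABCA1 fell (−0.97; −0.61 in the libraries low in MYH7). MYLIP, which degrades the LDL receptor, rose (0.33) and LPCAT3 fell (−0.29), so the 9 tested genes held 2 of each direction. Of 21 fatty acid genes 3 rose and 6 fell, with THRSP at 2.42, 2.51 and 2.55 CPM in exposed, against 6.01, 5.93 and 4.99 CPM in untreated monolayers (log2 −1.17, SE 0.18, adjusted p = 4.59e-06), ME1 lower (−0.34), and ACSS2 (0.35) and ACSL3 (0.31) higher.

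Many genes of the respiratory chain fell, each by little. Of 44 nuclear subunits and cytochrome c 20 fell and 1 rose (median −0.17). All 7 tested subunits of complex V fell, between −0.25 and −0.17, as did 7 of 19 in complex I, 3 of 6 in complex III and 1 of 7 in complex IV. Cytochrome c, CYCS, was at 320.3, 336 and 321 CPM in exposed, against 382, 401 and 411 CPM in untreated monolayers (log2 −0.29, SE 0.054, adjusted p = 0.000143), and NDUFS3 of complex I at 91.1, 87.5 and 88.8 CPM in exposed, against 109, 103 and 122 CPM in untreated monolayers (log2 −0.32, SE 0.063, adjusted p = 0.00024). In glycolysis 5 of 26 genes rose and 4 fell, 19.2% and 15.4%, shares near those of all genes of at least 10 CPM. PFKFB3, which makes the activator of phosphofructokinase, was at 47.6, 54.3 and 49.2 CPM in exposed, against 33.5, 32.3 and 32.4 CPM in untreated monolayers (log2 0.62, SE 0.064, adjusted p = 2.74e-09), its relative PFKFB2 fell (−0.39), and the lactate exporter SLC16A3 rose (0.51).

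Some chaperone and amino acid supply genes fell. In heat shock 8 of 24 genes fell and 2 rose, with the co-chaperone DNAJB4 at 15.8, 14.5 and 15.8 CPM in exposed, against 30.4, 31.2 and 27.6 CPM in untreated monolayers (log2 −0.95, SE 0.093, adjusted p = 1.02e-09). Of 30 genes of ATF4 and the unfolded protein response 6 fell and 2 rose (20.0% and 6.67%, beside 8.91% and 11.3% of all tested genes). The cystine carrier SLC7A11 was at 34.5, 42.2 and 43.6 CPM in exposed, against 55.1, 61.5 and 61.8 CPM in untreated monolayers (log2 −0.57, SE 0.088, adjusted p = 1.53e-05), and the leucine carrier SLC7A5 at 366, 413 and 403 CPM in exposed, against 467, 487 and 525 CPM in untreated monolayers (log2 −0.32, SE 0.053, adjusted p = 1.75e-05). PSPH, the last enzyme of serine synthesis, fell (−0.71) and HERPUD1 rose (0.30). NRF2 and pentose phosphate genes were divided, 5 risen (17.9%) and 6 fallen (21.4%) of 28. The export pumps ABCC2 (−0.80) and ABCC3 (0.67) moved in opposite directions. In autophagy and lysosome 13 of 41 genes rose (31.7%) and 4 fell (9.76%), led by ATG2A, which carries lipid to forming autophagosomes, at 122, 114 and 112 CPM in exposed, against 79.7, 73.1 and 81.7 CPM in untreated monolayers (log2 0.57, SE 0.061, adjusted p = 8.71e-09), and the protease CTSL (0.42).

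Few genes of cytosolic ribosomal proteins were called. Of 36 tested 1 rose, RPL13 (0.29), and 0 fell, with a list median of 0.00. In MYC and ribosome biogenesis 4 of 33 genes rose and 4 fell (12.1% each, beside 11.3% and 8.91% of all tested genes). MYC was at 115, 112 and 112 CPM in exposed, against 96.3, 101 and 107 CPM in untreated monolayers (log2 0.16, SE 0.056, adjusted p = 0.0457), but limma voom did not call it, and its call was lost when any 1 library other than untreated 3 was left out. Its change ran over 0.12 to 0.19 in the 6 fits that leave out 1 library. Of the clustered histones 1 of 18 tested fell and 0 rose (median −0.27). The called gene, H2BC5 (−0.44), was not called in limma voom or in 5 of 6 fits that leave out 1 library (−0.49 to −0.40 over the 6).

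Many junction and surface genes of epithelia rose. Of 33 genes of tight junctions, desmosomes and polarity 14 rose and 0 fell (median 0.18). Beside JUP, the plaque protein periplakin PPL was at 209, 196 and 197 CPM in exposed, against 157, 137 and 152 CPM in untreated monolayers (log2 0.44, SE 0.053, adjusted p = 1.09e-07), the desmosomal cadherin DSC2 at 217, 214 and 207 CPM in exposed, against 165, 154 and 154 CPM in untreated monolayers (log2 0.43, SE 0.056, adjusted p = 4.13e-07), and the claudin CLDN4 also rose (0.29). Of 33 integrins, laminins and matrix receptors 10 rose and 3 fell. ITGB5 was at 348, 342 and 345 CPM in exposed, against 183, 183 and 188 CPM in untreated monolayers (log2 0.90, SE 0.053, adjusted p = 6.52e-15), ITGA5 (0.79) and SDC4 (0.43) rose, and 2 syndecans moved apart. SDC1 was at 429.9, 511 and 545 CPM in exposed, against 248, 254 and 277 CPM in untreated monolayers (log2 0.93, SE 0.080, adjusted p = 6.03e-09) and SDC3 at 72.4, 64.2 and 62.4 CPM in exposed, against 111, 109.9 and 120.4 CPM in untreated monolayers (log2 −0.78, SE 0.063, adjusted p = 1.19e-11). Of 16 keratins 4 rose, KRT23, KRT7, KRT80 (0.62) and KRT18 (0.22), and KRT15 fell (−0.40).

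Of 24 luminal transcription factors 11 rose and 2 fell (median 0.24, lowest −1.03, highest 0.89). The ETS factor ELF3 was at 433, 479 and 475 CPM in exposed, against 246, 257 and 271 CPM in untreated monolayers (log2 0.84, SE 0.053, adjusted p = 2.6e-14), TFAP2C at 359.6, 395 and 402 CPM in exposed, against 287, 283 and 299 CPM in untreated monolayers (log2 0.41, SE 0.050, adjusted p = 8.69e-08), and FOXA1 at 217, 228 and 221 CPM in exposed, against 187, 176 and 180.3 CPM in untreated monolayers (log2 0.29). GRHL1 (0.32) and TFAP2A (0.34) rose as well, and TFAP2C had 0.27 in the libraries low in MYH7. The factors named are the called members with the smallest p, and the 2 that fell are not among them. In mammary secretory products 5 of 19 rose and 0 fell. PIP, the prolactin-induced protein, was at 8.40, 9.48 and 11.5 CPM in exposed, against 4.89, 4.41 and 3.19 CPM in untreated monolayers (log2 1.25, SE 0.18, adjusted p = 7.31e-06), and the mammaglobin SCGB2A2 at 69.4, 71.5 and 72.5 CPM in exposed, against 41.3, 40.7 and 41.97 CPM in untreated monolayers (log2 0.78). Oestrogen and progesterone targets were divided, 4 risen and 2 fallen of 16, with MYB (0.79) and CA12 (0.33) higher and FKBP5 (−0.40; −0.14 in the libraries low in MYH7) lower.

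Of 24 genes of the Notch pathway and stem cell markers 13 rose and 1 fell (median 0.18). The Notch target HES1 was at 52.6, 54.3 and 59.1 CPM in exposed, against 35.9, 31.8 and 36.6 CPM in untreated monolayers (log2 0.67, SE 0.073, adjusted p = 9.8e-09), HEY1 at 6.59, 6.68 and 7.03 CPM in exposed, against 4.21, 3.63 and 4.30 CPM in untreated monolayers (log2 0.75), and the aldehyde dehydrogenase ALDH1A3 at 44.7, 52.7 and 51.3 CPM in exposed, against 28.4, 33.8 and 34.6 CPM in untreated monolayers (log2 0.62, and 0.37 in the libraries low in MYH7). The surface marker CD24 (0.34) rose too. In the Wnt pathway 1 of 25 rose and 4 fell, among them the feedback inhibitors ZNRF3 (−0.50) and NKD1 (−0.52). The 1 that rose, WNT7B (0.19), was not called without exposed library 3 (0.16) or untreated library 1 (0.16) or 2 (0.17), and had 0.07 in the libraries low in MYH7. Of those that fell, FZD4 (−0.38) lost its call in 4 of 6 fits that leave out 1 library (−0.49 to −0.33 over the 6), and GSK3B (−0.19) without untreated library 2 (−0.14), with −0.10 in the libraries low in MYH7. Of 24 YAP and TEAD targets and factors 9 rose and 1 fell. CCN2, a secreted matrix protein, was at 15.1, 16.96 and 18.6 CPM in exposed, against 5.62, 7.29 and 5.82 CPM in untreated monolayers (log2 1.43, SE 0.17, adjusted p = 2.93e-06), and the ectonucleotidase NT5E at 98.7, 110.0 and 102 CPM in exposed, against 57.1, 52.96 and 54.4 CPM in untreated monolayers (log2 0.92, SE 0.080, adjusted p = 1.29e-09). In TGF-beta and BMP signalling 8 of 32 rose (25.0%) and 6 fell (18.8%), with SMAD3 at 63.2, 63.1 and 62.9 CPM in exposed, against 37.97, 35.1 and 33.7 CPM in untreated monolayers (log2 0.83, SE 0.067, adjusted p = 1.51e-11), GDF15 higher (1.13), and ID2 lower (−0.54).

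Genes of cAMP signalling held some of the largest rises. Of 35 tested, 7 rose and 3 fell (20.0% and 8.57%, beside 11.3% and 8.91% of all tested genes). The list as a whole did not rise: its median was −0.07, and 13 of the 35 changes were positive. Its lowest change was −0.76, and the genes named here are risen ones. Beside ADORA1 and RAPGEF3, the phosphodiesterase PDE4B, which degrades cAMP, was at 40.1, 45.4 and 45.7 CPM in exposed, against 21.8, 21.3 and 21.1 CPM in untreated monolayers (log2 1.03, SE 0.073, adjusted p = 4.85e-13), and the adenylyl cyclase ADCY9 at 102, 100.4 and 99.5 CPM in exposed, against 72.95, 68.2 and 71.2 CPM in untreated monolayers (log2 0.51, SE 0.049, adjusted p = 6.81e-10). Of 4 tested metallothioneins MT2A and MT1X rose and 0 fell, MT1X being at 1.04, 1.18 and 1.03 CPM in exposed, against 0.281, 0.390 and 0.185 CPM in untreated monolayers (log2 1.87). In the hypoxia list 8 of 26 rose (30.8%) and 3 fell (11.5%), with the angiogenic factor VEGFA at 223, 241 and 258 CPM in exposed, against 172, 174 and 160.3 CPM in untreated monolayers (log2 0.51, SE 0.066, adjusted p = 5.9e-07), EPAS1 higher (0.35) and HIF1A lower (−0.35).

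Of 20 NF-kB genes 5 rose and 1 fell (25.0% and 5.00%, beside 11.3% and 8.91% of all tested genes). Among the risen were the IkB family members NFKBIZ at 15.98, 19.1 and 16.3 CPM in exposed, against 9.88, 10.3 and 8.37 CPM in untreated monolayers (log2 0.85, SE 0.11, adjusted p = 2.16e-07) and NFKBIA (0.43). In the interferon response 3 of 29 rose (10.3%) and 4 fell (13.8%): OAS1, an antiviral synthetase, was at 50.97, 54.3 and 51.5 CPM in exposed, against 22.02, 24.5 and 23.5 CPM in untreated monolayers (log2 1.16, SE 0.070, adjusted p = 1.05e-14) and IRF1 at 24.3, 29.2 and 28.8 CPM in exposed, against 12.5, 14.6 and 14.2 CPM in untreated monolayers (log2 0.99, SE 0.11, adjusted p = 1.59e-08), while IFI6 fell (−0.34; −0.20 in the libraries low in MYH7). Of 19 MHC class I presentation genes only HLA-E was called (0.24), and it lost the call without exposed library 1 (0.23) or 2 (0.18) or untreated library 1 (0.19) or 3 (0.23). Of 20 ligands of NK and T cell receptors 6 rose and 2 fell. The checkpoint protein VSIR was at 11.5, 9.10 and 9.54 CPM in exposed, against 4.10, 4.06 and 4.16 CPM in untreated monolayers (log2 1.28, SE 0.13, adjusted p = 1.18e-09). CD55 and CD59 both shield cells from complement, a route by which antibodies can kill, and moved apart, with CD55 at 182, 188 and 187 CPM in exposed, against 139, 131 and 121 CPM in untreated monolayers (log2 0.51, SE 0.055, adjusted p = 9.01e-09) and CD59 at 169, 170.1 and 167 CPM in exposed, against 208, 205 and 211 CPM in untreated monolayers (log2 −0.30, SE 0.047, adjusted p = 8.84e-06).

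**Figure D4:**
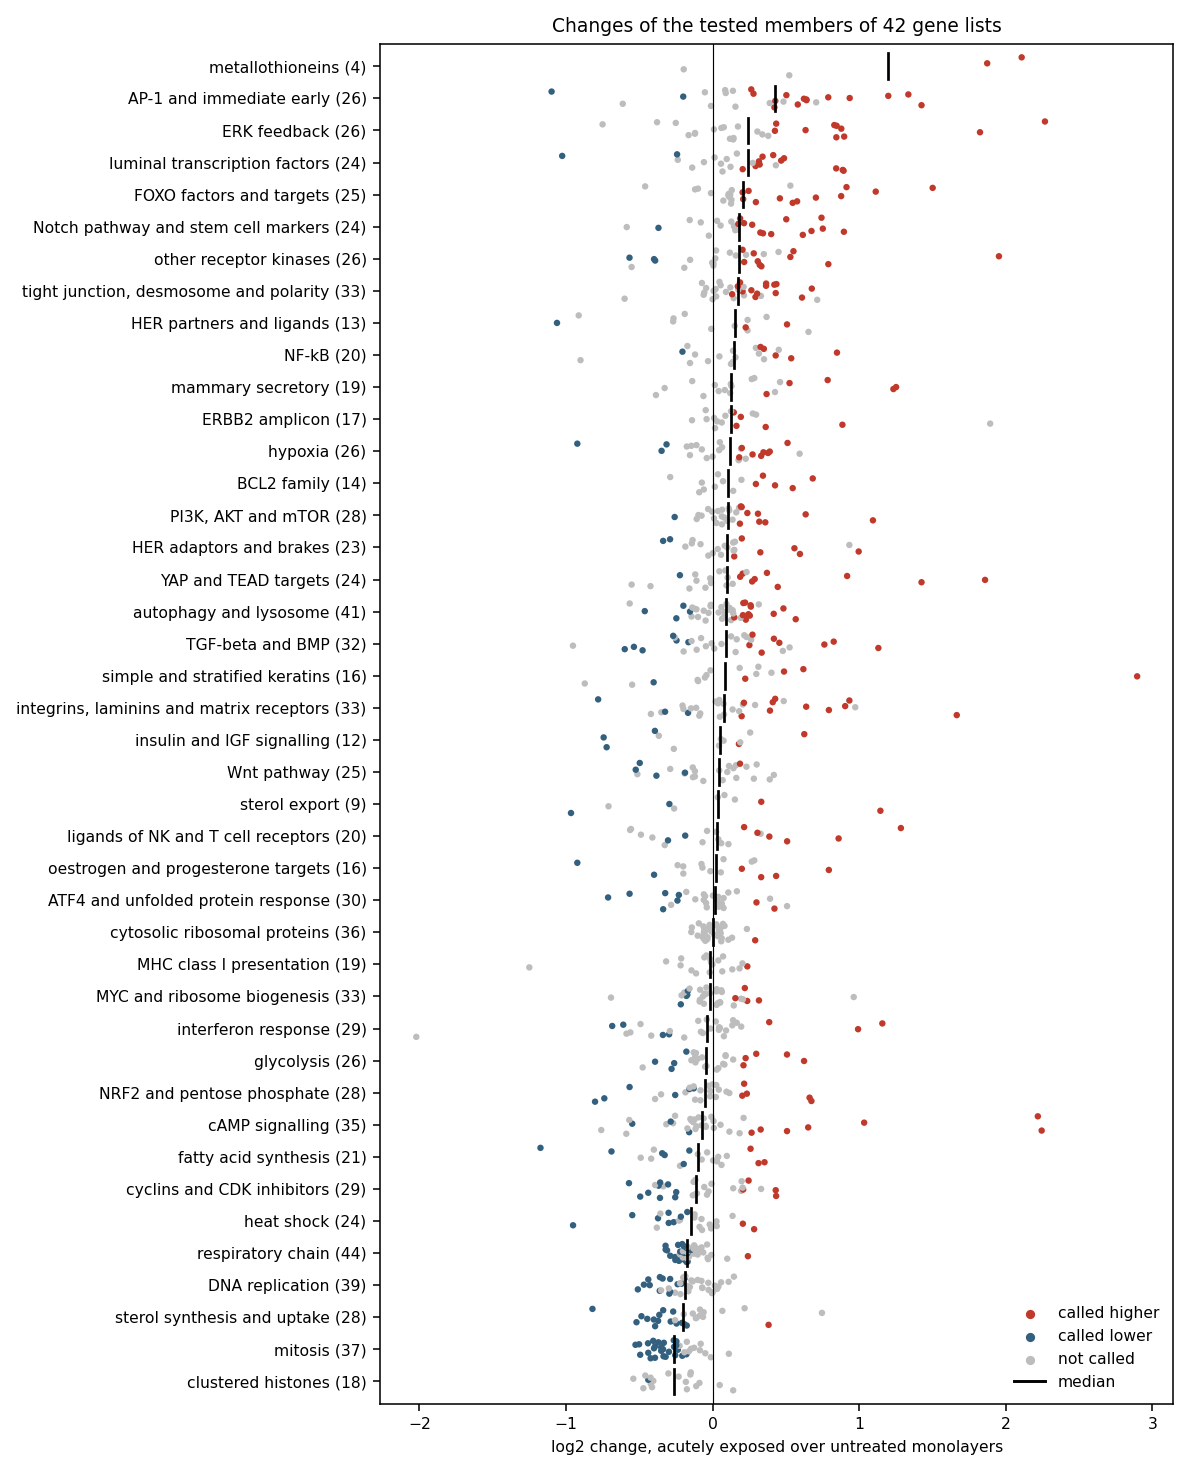
Each row is 1 of the 42 gene lists, with its number of tested members in parentheses and 1 point per member at its log2 change of acutely exposed over untreated monolayers; the black bar is the list median and rows run by median. Mitosis, sterol synthesis and replication lists lie at the low end, ERK feedback, AP-1 and luminal factors near the high end, and ribosomal proteins at 0.

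Because MYH7 divides the 6 libraries, the comparison was also made within each set. Exposed 2 and 3 against untreated 1 and 2, all with MYH7, called 1564 genes higher and 1031 lower. In the other pair, exposed 1 against untreated 3, 1462 of those 1564 genes (93.5%) were higher as well, beside 49.1% of all tested genes. Of the 1031 lower genes 858 (83.2%) were lower there, beside 50.5% of all tested genes. The changes were smaller in that pair: the 1564 genes had a median of 0.40 where they were called and 0.30 in the other pair, and the 1031 genes −0.40 and −0.24. These genes were chosen by their calls in the first set, which by itself favours larger changes there. In that second pair 450 of the higher and 137 of the lower genes were also called; it has 1 library per group and borrows its spread from the other groups. The 2 pairs share no library.

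**Figure D5:**
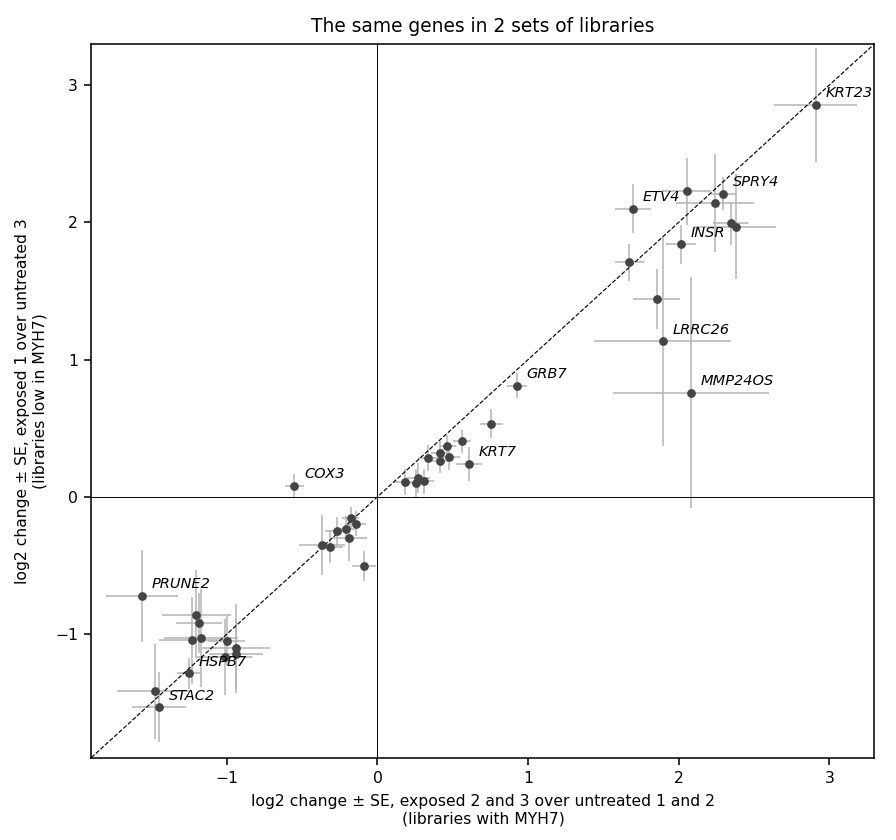
Log2 change with its standard error of 46 named genes (the largest rises and falls, those of largest CPM difference and 9 genes followed throughout) within the libraries with MYH7 (horizontal) and within the libraries low in MYH7 (vertical), with a dashed line of equality. Points follow the line for KRT23, SPRY4, INSR and HSPB7, LRRC26 and MMP24OS fall below it, and COX3 is the 1 gene with opposite signs.

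The acute response of monolayers was set beside that of aggregates treated with 50 µg/ml for 24 h after 96 h in a liquid overlay with 5% matrigel, each over its own untreated culture. Treated aggregates were also 24 h older than untreated ones. Dose, culture form, age and library set differ between these comparisons and cannot be told apart. The difference between the responses was called in edgeR for 3757 of 15969 genes (23.5%). MYH7 was at 29.9, 20.6 and 0 CPM in untreated aggregates and at most 0.0860 CPM in treated ones, so it is uneven in this contrast too, and with MYH7 presence as a term 3229 differences were called.

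SPRY4 rose more in monolayers. It was at 86.6 ± 3.84 CPM in treated and 42.01 ± 1.02 CPM in untreated aggregates (log2 1.04), and the difference between the responses was 1.22, SE 0.093, adjusted p = 9.15e-12. INSR was at 30.8 ± 1.97 CPM in treated and 19.1 ± 0.855 CPM in untreated aggregates (log2 0.69), with a difference of 1.26, SE 0.12, adjusted p = 9.38e-10. EGFR and MYC had positive changes in monolayers and negative ones in aggregates. EGFR was at 234 ± 8.28 CPM in treated and 314 ± 7.88 CPM in untreated aggregates (difference 0.65, SE 0.088, adjusted p = 9.85e-07) and MYC at 200.4 ± 11.6 CPM in treated and 276 ± 14.5 CPM in untreated aggregates (difference 0.62, SE 0.078, adjusted p = 2.73e-07). CDKN1B was at 88.5 ± 1.73 CPM in treated and 106 ± 6.48 CPM in untreated aggregates (difference 0.47, SE 0.083, adjusted p = 6.51e-05), and CCND1 at 334 ± 9.89 CPM in treated and 286 ± 11.8 CPM in untreated aggregates (difference 0.21, SE 0.064, adjusted p = 0.0155). MKI67 was at 54.2 ± 6.67 CPM in treated and 32.4 ± 3.26 CPM in untreated aggregates, with a difference of −0.96, SE 0.14, adjusted p = 3.03e-05: it was lower in exposed than in untreated monolayers and higher in treated than in untreated aggregates. For HER2 and its partner the responses were closer. ERBB2 was at 8992 ± 139.7 CPM in treated and 6189 ± 426 CPM in untreated aggregates (difference −0.18, SE 0.075, adjusted p = 0.0843), which DESeq2 and limma voom called, and ERBB3 at 500.3 ± 29.8 CPM in treated and 348 ± 3.47 CPM in untreated aggregates (difference −0.02, SE 0.071, adjusted p = 0.901).

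The genes with the largest called differences included markers of other cell types. POSTN, a matrix protein and one of the fibroblast markers used here, was at 16.9 ± 5.64 CPM in exposed and 22.1 ± 9.90 CPM in untreated monolayers, and at 0.103 ± 0.0299 CPM in treated and 16.9 ± 4.76 CPM in untreated aggregates. The synaptic protein SNAP25, one of the brain markers, was at 0.200 ± 0.124 CPM in exposed and 0.430 ± 0.132 CPM in untreated monolayers, and at 15.7 ± 1.65 CPM in treated and 0.130 ± 0.0631 CPM in untreated aggregates. In both the larger step lay between treated and untreated aggregates. Neither gene was called between exposed and untreated monolayers (log2 −0.40, adjusted p = 0.457, and log2 −1.16, adjusted p = 0.129). The part of RNA from other cells in these differences was not tested.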

How the data were processed

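Total RNA was extracted with TRIzol and made into TruSeq libraries, per the labels. The deposited values are raw counts per gene, made with featureCounts on hg38 per the submitters' processing notes, which also list limma; versions, annotation and strand setting are not given in the sources used here. No gene of the table has a maximum under 0.501 CPM. Columns were matched to samples by title.

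Counts were tested in edgeR 4.0.16 (R 4.3.3) with TMM scaling, filterByExpr (584 genes with 0.0116% of counts removed), 1 mean per group for 7 groups (14 residual degrees of freedom) and two-sided quasi-likelihood tests, Benjamini-Hochberg adjusted over 15969 genes in each of 2 contrasts. The steps were tested on simulated data. The biological coefficient of variation was 5.98%. Chi-squared per degree of freedom between replicates of the 2 groups was 2.48 to 7.12, where counting alone gives 1. It was highest between untreated library 3 and untreated libraries 1 (7.12) and 2 (6.97). DESeq2 1.42.0 and limma voom 3.58.1 were among the alternatives.

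The members, 42 gene lists and 9 marker lists were chosen with earlier results of these data known. Named genes are the 12 largest fitted rises and falls with at least 5 CPM in 1 group and no overlap, the 8 largest CPM differences each way, up to 5 called members per list, all of the amplicon, HER and ERK feedback lists, 9 genes followed throughout, and the 5 largest differences between responses each way, leaving out clone, LOC, LINC and MIR names and pseudogenes. For length not all are printed, and some genes under this rule are not reported here. KIF11 and KIF23 are shown for their promoters. Positions and promoters are from RefSeq (GRCh38.p14).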

Additional observations from a re-analysis of the deposited data

Results flagged for a closer look

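Results are listed here where the response of acutely exposed over untreated monolayers differed, by edgeR's test of the difference itself (23.5% of 15969 genes called), from that of treated over untreated aggregates. Values are log2 differences, monolayer response minus aggregate response. Among the genes followed throughout, INSR (1.26), SPRY4 (1.22), EGFR (0.65), MYC (0.62), CDKN1B (0.47) and CCND1 (0.21) differed towards the monolayers and MKI67 (−0.96) towards the aggregates.

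The largest differences towards the monolayers included POSTN (6.89), TYRP1 (5.40), ANKRD1 (4.70) and CAVIN2 (3.94), and those towards the aggregates SNAP25 (−8.002), SPP1 (−6.99), GRIA2 (−4.17), KIF5A (−3.59) and FGA (−2.99). None of these 9 was called between exposed and untreated monolayers. Dose, culture form, age and library set cannot be told apart in these differences.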

How the results depend on the processing

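With 1799 genes higher and 1423 lower as reported, DESeq2 called 1943 and 1411, limma voom 1809 and 1540, RLE size factors 1846 and 1363, no filter 1726 and 1474, genes averaging 10 CPM or more 1569 and 1549, a fit of only the groups compared 2034 and 1666, and MYH7 presence as a term 1833 and 1435. That term could move these counts only little, as presence was balanced between the groups. Leaving out 1 library gave 1396 to 1765 higher and 963 to 1283 lower. Without the libraries with MYH7, which leaves 1 library per group whose spread is assumed to be that of the other groups, 525 were called higher and 202 lower, and within the libraries low in MYH7 509 and 211. COX3 reversed in these fits, at 0.0788 and 0.0782, beside −0.36. Of the 221 named genes called 103 lost their call within the libraries low in MYH7 and 17 within the libraries with MYH7, where 1564 were called higher and 1031 lower. Same-numbered replicates did not pair (correlations of deviations −0.186, 0.311 and −0.314), and the replicate block gave 1762 higher and 1395 lower. The deviations followed MYH7 instead: exposed 1 and untreated 3, both low in it, had a correlation of 0.437. It was 0.125 to 0.327 between libraries with MYH7, and −0.443 to −0.186 between a library with MYH7 and one low in it. Deviations are taken from each group's own mean, so these correlations are not independent. Differences between responses stayed within 1.5 times of the reported 3757 in each alternative run. Depth limits genes of low level, where a change must be large to be called.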

Other observations

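Marker genes of other cell types stood at low levels, as sums of CPM over the listed genes of the table. Basal and myoepithelial markers summed to 11.4 to 15.7 CPM in exposed and 15.5 to 19.4 CPM in untreated monolayers, with 0 of 6 tested genes called higher and 1 lower. Endothelial markers summed to 111 to 120 CPM in exposed and 88.8 to 92.5 CPM in untreated monolayers, with 2 of 6 called higher. Melanocyte markers ranged over 45.1 to 106 CPM in exposed and 57.5 to 125 CPM in untreated monolayers and did not follow MYH7, and 0 of 8 were called. Leucocyte markers present in the table summed to 59.9 to 65.1 CPM in exposed and 56.7 to 63.1 CPM in untreated monolayers, brain markers to 13.1 to 14.2 CPM in exposed and 14.3 to 20.6 CPM in untreated monolayers, and kidney markers to at most 1.32 CPM in exposed and 1.12 CPM in untreated monolayers. Among the 12 striated muscle markers tested 0 were called higher and 1 lower, and among the 11 fibroblast markers 0 higher and 2 lower. Called or not, all 12 muscle markers had negative changes (median −1.48, from −1.86 to −0.04). The fibroblast markers had a median of −0.40, with 3 of 11 changes positive. The part of these marker genes in the called genes was not tested beyond the fits with MYH7.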
